A study of Rattus norvegicus with 6 samples.

Results

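The secreted Wnt ligands, their Frizzled receptors and co-receptors, their antagonists and a few pathway readouts were chosen by gene symbol: all Wnt, Fzd, Sfrp1 to Sfrp5, Dkk1 to Dkk4, Rspo1 to Rspo4, Lgr4 to Lgr6, Lrp5 and Lrp6 entries, with Wif1, Frzb, Axin2, Lef1 and Tcf7. This gave 51 entries of the 34106 in the table, with 50 symbols, since Dkk1 stands there with 2 identifiers. Of these, 39 had enough counts to be tested among 15374 tested genes, and the other 12 are given as counts.

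Wnt proteins are secreted, lipid-modified ligands that bind Frizzled receptors. Together with the co-receptors Lrp5 and Lrp6 they stabilize β-catenin, which then acts with the TCF and LEF transcription factors, while other Wnts act through receptors such as Ror2 without β-catenin. R-spondins bind Lgr receptors and raise the amount of Frizzled at the cell surface, secreted Frizzled-related proteins (Sfrp, Frzb) and Wif1 bind Wnts outside the cell, and most Dickkopf (Dkk) proteins block Lrp5 and Lrp6. In peripheral nerve, Wnt signaling is known as an input to myelin gene expression in Schwann cells, and in the jaw as a regulator of tooth and bone formation.

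The expression of these genes was measured with RNA-seq in whole pieces of the inferior alveolar nerve (IAN), which serves sensation in the lower teeth and lip, of male Sprague–Dawley rats bought at 6 to 7 weeks of age. There were 3 biological replicates from rats on day 14 after transection of the IAN and the mental nerve with a gap left between the stumps (IANX), and 3 from rats on day 14 after sham surgery (Sham). In IANX rats the bone over the nerve was drilled open, whereas the sham surgery is described only as an incision of cheek skin and masseter muscle, so that nerve transection and bone removal cannot be told apart here. The treatment label of the IANX samples reads "transfection", while the methods describe a cut nerve.

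Values of 3 samples are given in the order of samples 1, 2 and 3, and SE stands for standard error. Total counts were 13988750 to 16440720 per IANX sample and 14630127 to 17105402 per Sham sample. IANX 2 stood apart from the other IANX samples, with Pearson correlations of log2 CPM of 0.902 and 0.914 to them across genes, against 0.959 between IANX 1 and IANX 3. The 8 markers of ameloblasts and dental epithelium, the cells that make enamel, summed (in CPM, counts scaled to a common library size) to 55291, 1599 and 60960 CPM in IANX samples, against 122, 849 and 107 CPM in Sham samples. Of these markers, Klk4, Odam and Amtn were below 3 CPM in every sample. Tooth transcripts thus came with the IANX group, and far more with IANX 1 and IANX 3 than with IANX 2. Markers of other cell types differed as well. The odontoblast markers Dspp and Dmp1 summed to 1197, 357 and 271 CPM in IANX, against 27.3, 28.9 and 22.0 CPM in Sham. The 5 epithelium markers summed to 1324, 34.9 and 2651 CPM in IANX, against 390, 472 and 415 CPM in Sham. Most of that Sham sum was Cdh1, at 372, 447 and 402 CPM. The 5 osteoblast markers summed to 2452, 1254 and 1032 CPM in IANX, against 1118, 376 and 417 CPM in Sham. The 6 Schwann cell markers summed to 2887, 10161 and 6540 CPM in IANX samples, against 137631, 179587 and 130081 CPM in Sham samples. All 6 markers were detected in every sample. In bulk tissue, fewer cells of a type and less RNA per cell cannot be told apart. The part of these cell types in the changes of Wnt family genes was not tested.

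Most Wnt family genes that changed were higher after IANX, with Sfrp5 and Lgr5 as the exceptions. Of the 39 tested members, 20 were higher and 2 lower after IANX, while 17 missed an adjusted p of 0.05 (edgeR, n = 3 per group). Over all tested genes, 17.8% were higher and 16.6% were lower, and with library sizes as the only scaling 25 members were higher and 2 lower, against 38.5% and 9.55% of all tested genes. The median log2 fold change was 1.15 over the tested members and 0.08 over all tested genes. In 19 members every IANX sample was above every Sham sample, and in 2 below, where 27% and 24.5% of all tested genes stood apart in these ways. The count of higher members depended on which sample was left out. It was 15, 20 and 12 without IANX 1, IANX 2 and IANX 3, and 11, 5 and 5 without Sham 1, Sham 2 and Sham 3. Sfrp5 and Lgr5 were lower without any 1 of the 6 samples. Of all 15374 tested genes, 2734 were higher with all samples. That number was 1987, 3489 and 1714 without IANX 1, IANX 2 and IANX 3. It was 1696, 1200 and 1133 without Sham 1, Sham 2 and Sham 3. A fit with a sample left out has less power, so that a lost call need not mean a smaller change.

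**Figure D1:**
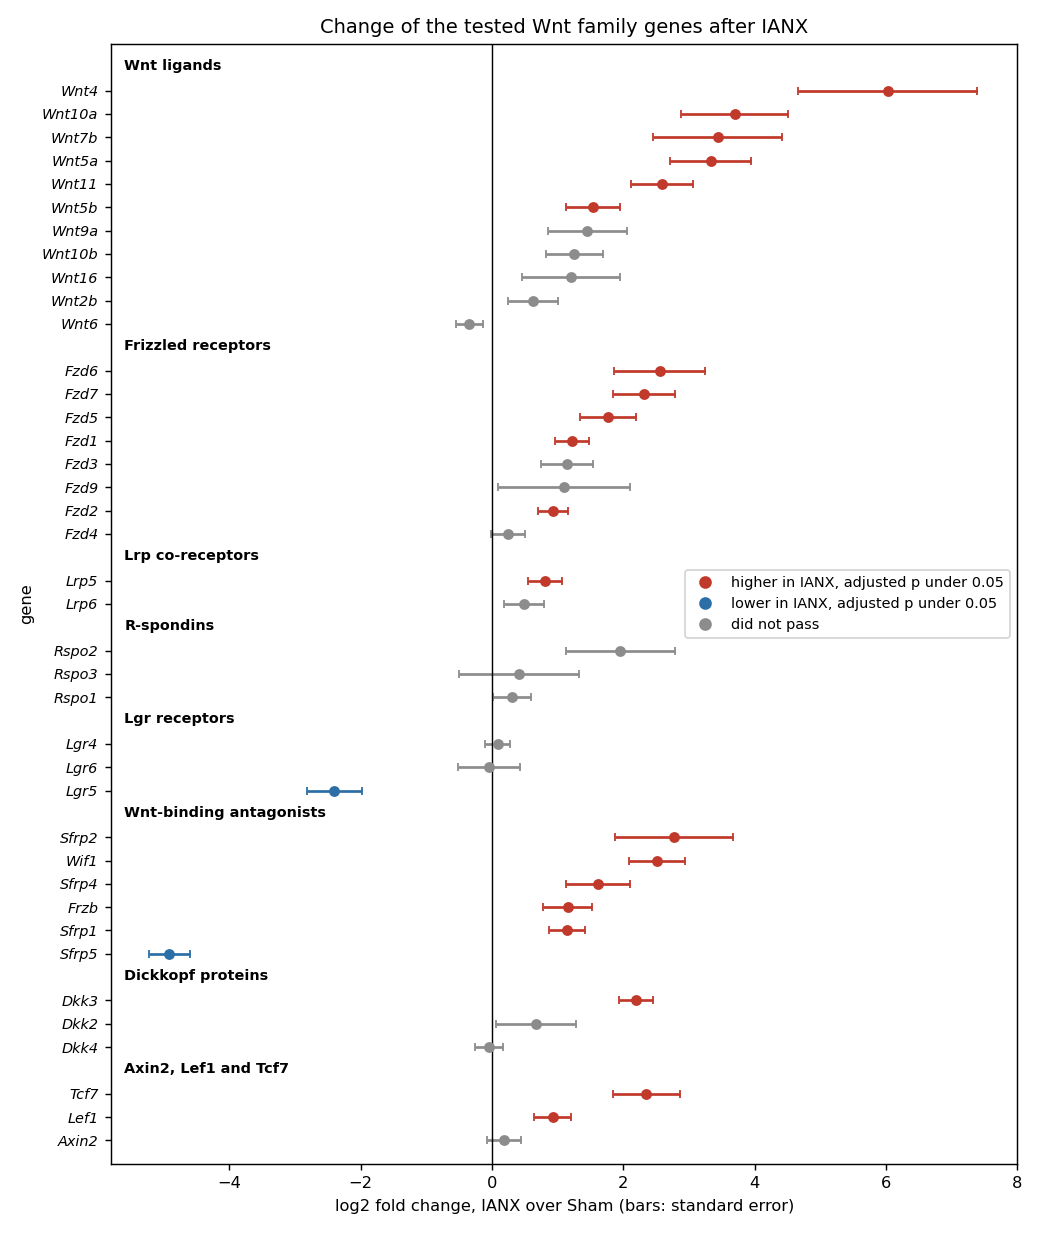
Log2 fold change of each tested Wnt family gene (x axis, IANX over Sham, n = 3 per group, bars are the standard error), grouped by role. Points lie mostly to the right of 0, with Wnt4 at 6.03, and 2 called genes lie to the left, Sfrp5 at -4.91 and Lgr5 at -2.40.

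The Wnt-binding antagonists changed in opposite directions: 5 of the 6 were higher after IANX, and the one that was lower, Sfrp5, had been by far the most abundant. Sfrp5 (ENSRNOG00000014940), a secreted Frizzled-related protein, is encoded on chromosome 1 (rn6, 261442108 to 261446570). Its level was at 36.9, 62.3 and 33.6 CPM in IANX samples, against 1218, 1407 and 1374 CPM in Sham samples. All IANX samples lay far below all Sham samples, and the Sham samples were close together. The mean was 44.3 ± 15.7 CPM in IANX and 1333 ± 101 CPM in Sham (SD, n = 3 each), for which log2 fold change was -4.91 (SE 0.31, adjusted p = 0.000276). Sfrp5 was lower in each of 12 alternative fits, with log2 fold changes of -5.26 without IANX 2 and -4.41 for IANX 2 alone. The Schwann cell marker sum was also lower in every IANX sample, as given above, and so was the sum of 4 perineurium markers. That sum was 373, 658 and 640 CPM in IANX samples, against 2187, 2206 and 1861 CPM in Sham samples. Most of it was Itgb4, at 229, 422 and 417 CPM in IANX samples, against 1913, 1954 and 1651 CPM in Sham samples. Slc2a1 and Krt19 were also lower in every IANX sample. Cldn1 was not, at 108, 174 and 167 CPM in IANX samples, against 134, 95.4 and 85.7 CPM in Sham samples.

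Per gene length, Sfrp5 alone made up most of the Wnt family transcript level in Sham and little of it in IANX. In units of CPM per kilobase, which allow levels of different genes to be compared, Sfrp5 was at 22.3 ± 7.90 in IANX and at 670.1 ± 50.6 in Sham (SD, n = 3 each). It held 2.95%, 9.46% and 2.34% of the summed level of all members in IANX 1, 2 and 3, against 72.9%, 81.3% and 80.3% in Sham 1, 2 and 3. In IANX 1 and IANX 3 the largest share was that of Sfrp2, at 26.9% and 39.2%. In IANX 2 it was that of the receptor Fzd2, at 18.0%, ahead of Sfrp4 at 14.2%. The shares of 1 sample sum to 100%, so that a fall of Sfrp5 raises the others by construction. The summed level without Sfrp5 was 610, 300 and 704 CPM per kilobase in IANX 1, 2 and 3 and 228, 163 and 169 CPM per kilobase in Sham 1, 2 and 3, higher in every IANX sample.

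**Figure D2:**
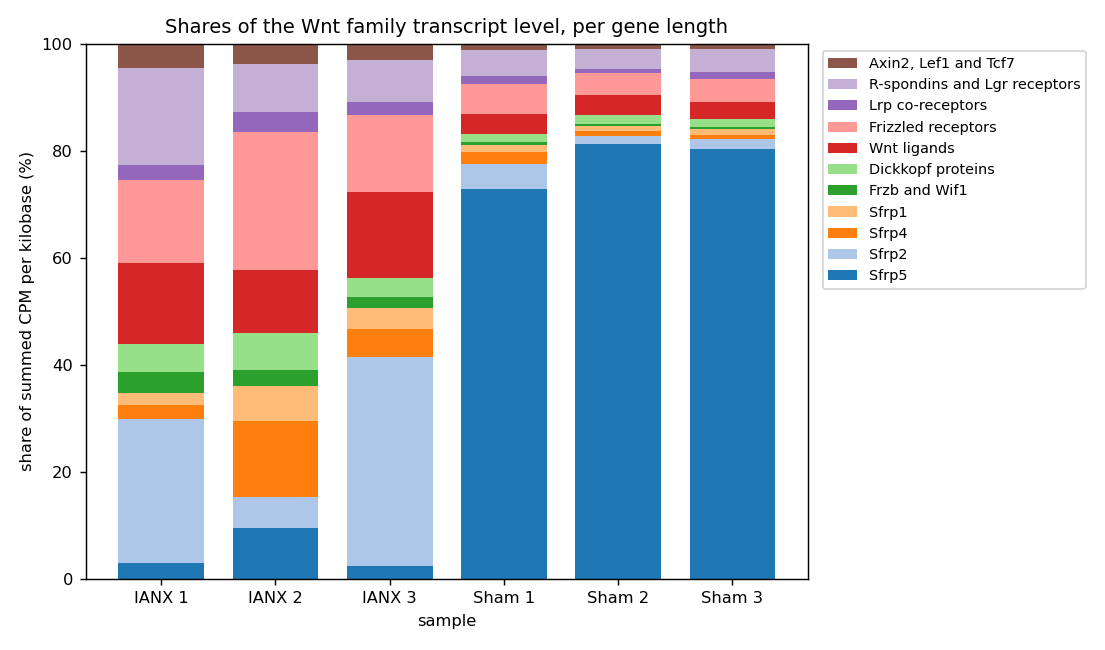
Share of each gene or role in the summed CPM per kilobase of the 51 Wnt family entries (y axis, percent) in each sample (x axis, 3 IANX then 3 Sham). Sfrp5, the lowest block of each bar, fills 72.9% to 81.3% of the Sham bars and 2.34% to 9.46% of the IANX bars.

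The 5 other antagonists were higher in IANX, but not in the same samples. Wif1, a secreted Wnt inhibitor that is no Frizzled relative, was at 51.6, 15.1 and 31.3 CPM in IANX samples, against 5.94, 5.58 and 5.61 CPM in Sham samples. Every IANX sample was above the narrow Sham range, with a log2 fold change of 2.51 (SE 0.43, adjusted p = 0.00533). Sfrp1 was at 53.1, 84.5 and 109 CPM in IANX samples, against 43.1, 33.1 and 35.6 CPM in Sham samples, without overlap (log2 fold change 1.14, SE 0.27, adjusted p = 0.0165). Frzb, also known as Sfrp3, was at 6.23, 8.12 and 3.67 CPM in IANX samples, against 3.18, 2.33 and 2.58 CPM in Sham samples, a narrow gap with a log2 fold change of 1.15 (SE 0.37, adjusted p = 0.0478).

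Sfrp2 and Sfrp4 overlapped between the groups although both were called higher. Sfrp2 was at 396, 45.4 and 662 CPM in IANX samples, against 94.1, 30.1 and 37.1 CPM in Sham samples. IANX 2 was thus within the Sham range for Sfrp2, and the log2 fold change of 2.77 (SE 0.89, adjusted p = 0.0476) rested on IANX 1 and IANX 3. Sfrp4 showed another order, at 78.2, 216 and 172 CPM in IANX samples, against 84.1, 35.6 and 31.9 CPM in Sham samples (log2 fold change 1.62, SE 0.48, adjusted p = 0.0375). Here IANX 2 was the highest sample and IANX 1 lay below Sham 1. For IANX 2 alone, the log2 fold change of Sfrp2 was -0.23 and that of Sfrp4 was 2.11, and without IANX 2 they were 3.28 and 1.29. Wif1 passed without any 1 of the 6 samples, and the other 4 were no longer called without some of them. A fit with a sample left out has less power. Without Sham 3, Sfrp1 kept a log2 fold change of 1.11, with an SE of 0.34. Sfrp1 was no longer called without Sham 2 or Sham 3 (adjusted p = 0.073 and 0.0664), nor was Sfrp4 without IANX 2, IANX 3, Sham 2 or Sham 3 (0.0578, 0.0868, 0.137 and 0.117). Frzb did not pass without IANX 1, IANX 2, Sham 1, Sham 2 or Sham 3 (0.105, 0.0935, 0.0849, 0.137 and 0.136). When single samples were left out, Sfrp2 passed only without IANX 2, and it had an adjusted p of 0.075, 0.13, 0.0642, 0.163 and 0.142 without IANX 1, IANX 3, Sham 1, Sham 2 and Sham 3. Its log2 fold change was 2.02 without IANX 3 and 3.45 without Sham 1.

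Among the Dickkopf genes, Dkk3 was higher after IANX and the others did not pass. Dkk3 (ENSRNOG00000016343, chromosome 1 of rn6 from 176940693 to 176983045) encodes a divergent member of the family, which is not known as an inhibitor of Lrp5 and Lrp6. It was at 100.4, 76.9 and 62.2 CPM in IANX samples, against 23.1, 14.9 and 14.4 CPM in Sham samples. The groups were well apart, and IANX 2 lay between the other IANX samples. The log2 fold change was 2.19 (SE 0.26, adjusted p = 0.00159), within 1.99 to 2.45 when each of the 6 samples was left out, all of which passed. Dkk2 was at 8.55, 1.96 and 10.7 CPM in IANX samples, against 2.62, 4.83 and 5.83 CPM in Sham samples (adjusted p = 0.418), and without IANX 2 it passed (log2 fold change 1.10, adjusted p = 0.0457). Dkk4, at 10.6 to 13.7 CPM in IANX and 11.7 to 15 CPM in Sham, had a value of -0.05 for log2 fold change (SE 0.21). Dkk1, a potent inhibitor of Lrp5 and Lrp6, was too low to be tested: one of its identifiers had 13, 0 and 8 counts in IANX 1, 2 and 3 and 0 in Sham, or at least 5.30-fold higher with the Sham group set to 3 counts in all, and the other had 0 counts in all samples.

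**Figure D3:**
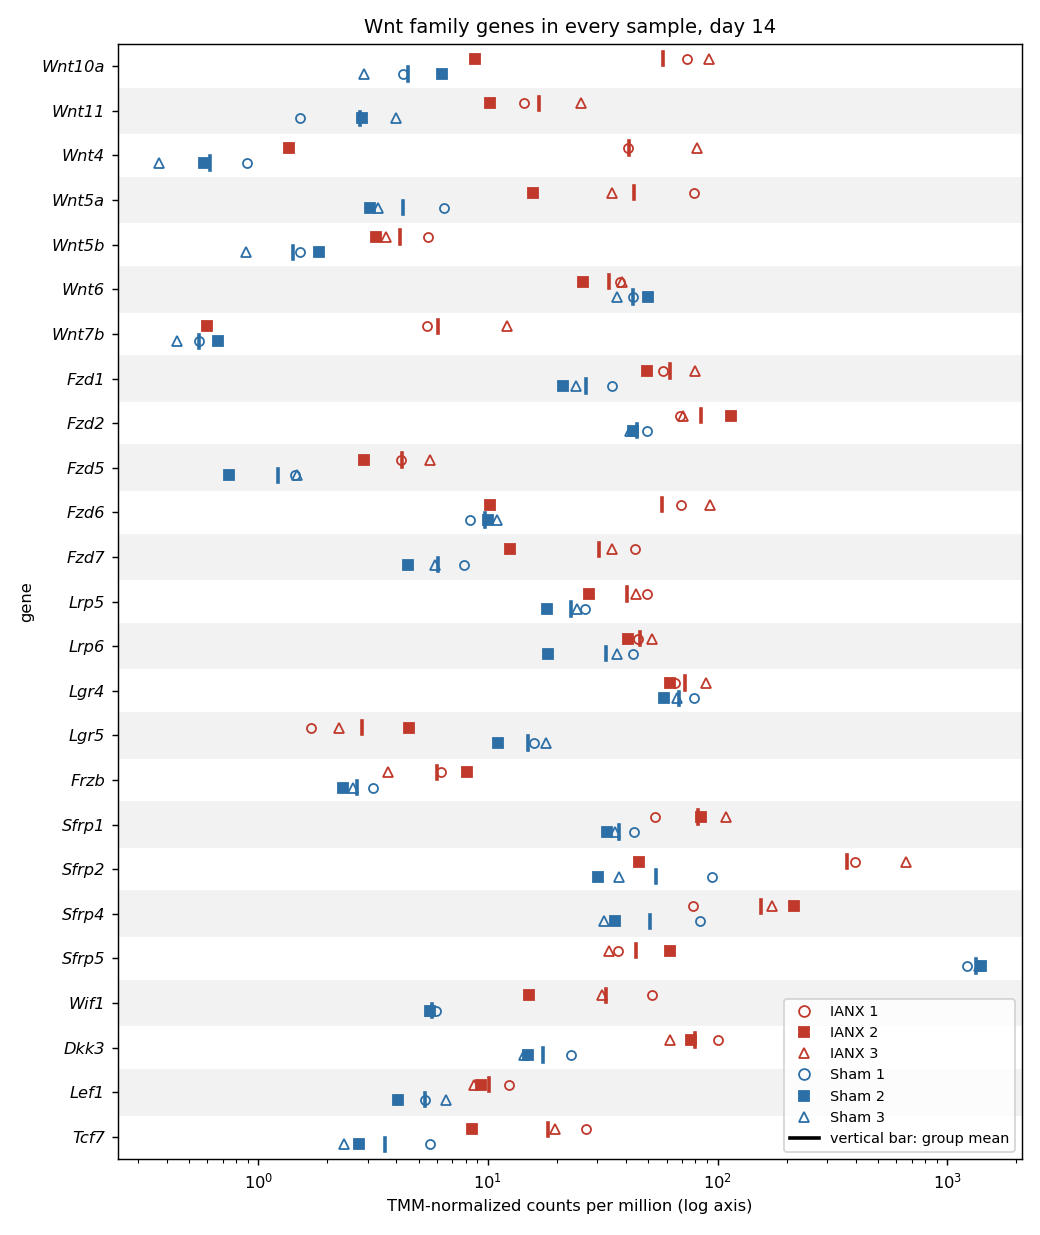
TMM-normalized CPM (x axis, log scale) of the named and tested Wnt family genes in each IANX sample (red) and each Sham sample (blue), with a vertical bar at the group mean. Sfrp5 is at 33.6 to 62.3 CPM in IANX and 1218 to 1407 CPM in Sham, and IANX 2 (red filled square) lies near the Sham samples for Wnt7b, Fzd6 and Sfrp2.

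Of 19 Wnt ligand genes, 11 were tested, and 6 were higher in IANX while none was lower. Wnt5a, a ligand of Ror2, was at 79.3, 15.7 and 34.7 CPM in IANX samples, against 6.42, 3.08 and 3.32 CPM in Sham samples. All IANX samples were above all Sham samples (log2 fold change 3.33, SE 0.62, adjusted p = 0.00764, and 2.55 without IANX 1). Wnt11 was at 14.4, 10.2 and 25.5 CPM in IANX samples, against 1.52, 2.83 and 3.99 CPM in Sham samples (log2 fold change 2.59, SE 0.47, adjusted p = 0.00709). Wnt5b was lower in level, at 5.49, 3.27 and 3.62 CPM in IANX samples, against 1.52, 1.83 and 0.886 CPM in Sham samples (log2 fold change 1.54, SE 0.41, adjusted p = 0.0259). The groups did not overlap for any of these 3 ligands. Wnt5a and Wnt11 passed without any 1 sample, and Wnt5b did not pass without IANX 1, IANX 3, Sham 1, Sham 2 or Sham 3 (adjusted p = 0.0787, 0.0528, 0.0667, 0.0504 and 0.0875).

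Wnt4 had the largest log2 fold change of the tested members. It was at 40.6, 1.36 and 81.0 CPM in IANX samples, against 0.897, 0.583 and 0.369 CPM in Sham samples, from 13, 7 and 5 counts in Sham. IANX 2 was above the Sham samples by far less than the other IANX samples. The log2 fold change of 6.03 (SE 1.36, adjusted p = 0.0147) was 5.04 without IANX 3, 6.57 without IANX 2 and 1.14 for IANX 2 alone. Wnt10a, in which variants cause missing teeth in humans, was at 73.8, 8.77 and 91.9 CPM in IANX samples, against 4.28, 6.33 and 2.88 CPM in Sham samples (log2 fold change 3.70, SE 0.81, adjusted p = 0.0133). Wnt7b was at 5.43, 0.599 and 12.1 CPM in IANX samples, against 0.552, 0.666 and 0.443 CPM in Sham samples, so that IANX 2 lay within the Sham range (log2 fold change 3.44, SE 0.98, adjusted p = 0.0319, and 2.41 without IANX 3). All 3 ligands were highest in IANX 3 and lowest of the IANX samples in IANX 2. Wnt4 was no longer called without Sham 1, 2 or 3 (adjusted p = 0.0529, 0.0713 and 0.0609), nor was Wnt10a (0.0535, 0.0511 and 0.0564), nor Wnt7b without these or without IANX 3 (0.0961, 0.104, 0.104 and 0.0928).

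The remaining ligands did not pass the test or were too low for it. Wnt6, the ligand gene with the second highest mean level per length in IANX and the highest in Sham, was at 37.5, 25.8 and 38.2 CPM in IANX samples, against 42.9, 49.6 and 36.5 CPM in Sham samples. The groups overlapped, with a log2 fold change of -0.34 (SE 0.21, adjusted p = 0.228) that was 0.12 with library sizes as the only scaling. In mean CPM per kilobase, Wnt6 was at 16.4 ± 3.38 in IANX and 20.9 ± 3.18 in Sham, and Wnt10a, its neighbour on chromosome 9, at 23.6 ± 17.7 in IANX and 1.82 ± 0.704 in Sham (SD, n = 3 each). Wnt10b, Wnt9a, Wnt16 and Wnt2b had log2 fold changes of 1.25, 1.45, 1.20 and 0.63 and did not pass (adjusted p = 0.0597, 0.0991, 0.247 and 0.241). Wnt10b went against the pattern of Wnt10a, with its highest value in IANX 2, at 3.96, 11.4 and 6.10 CPM in IANX samples, against 3.24, 2.33 and 3.40 CPM in Sham samples. Wnt2b shares its locus with St7l on the other strand, and the strand setting of the counting is not given in the sources used here.

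Wnt3a and Wnt7a, both ligands of the β-catenin pathway, were left out by the filter on low counts and were nearly absent outside IANX 1 and IANX 3. Wnt3a had 298, 9 and 472 counts in IANX 1, 2 and 3 and 1, 0 and 0 in Sham 1, 2 and 3, a ratio of normalized counts of 590 with a 95% interval of 105.5 to 23315 that covers counting error only. Wnt7a had 158, 0 and 226 counts in IANX and 0, 0 and 2 in Sham (ratio 145, interval 40.0 to 1204). IANX 2 thus had 9 counts of Wnt3a and 0 of Wnt7a, where a count of 0 allows up to 3 counts. Without the filter both genes passed in edgeR (adjusted p = 0.00479 and 0.022), and with DESeq2 Wnt3a passed and Wnt7a did not (6.71e-05 and 0.0565). Wnt2 had 23 counts in IANX and 27 in Sham, and Wnt1, Wnt3, Wnt8a, Wnt8b and Wnt9b had at most 8 counts in any group.

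Frizzled receptor genes were higher or did not pass, and 5 of the 8 tested were higher. Fzd2 had the highest level per length, with 44.3 ± 13.3 CPM per kilobase in IANX and 23.2 ± 2.15 in Sham (SD, n = 3 each). It was at 68.9, 114 and 70.9 CPM in IANX samples, against 49.1, 42.8 and 41.4 CPM in Sham samples, with IANX 2 the highest (log2 fold change 0.93, SE 0.22, adjusted p = 0.0182). Fzd1 was at 58.1, 49.5 and 79.4 CPM in IANX samples, against 34.8, 21.2 and 24.3 CPM in Sham samples (log2 fold change 1.22, SE 0.25, adjusted p = 0.0111). These abundant receptors did not overlap between the groups. Fzd7 was at 43.9, 12.4 and 34.7 CPM in IANX samples, against 7.87, 4.50 and 5.91 CPM in Sham samples (log2 fold change 2.31, SE 0.47, adjusted p = 0.0103). Fzd5 was at 4.19, 2.89 and 5.57 CPM in IANX samples, against 1.45, 0.750 and 1.48 CPM in Sham samples (log2 fold change 1.77, SE 0.43, adjusted p = 0.0187). Again the groups did not overlap, and IANX 2 was the lowest IANX sample. Fzd6, a receptor of planar cell polarity in epithelia, was at 69.3, 10.2 and 93.0 CPM in IANX samples, against 8.35, 9.99 and 10.9 CPM in Sham samples. IANX 2 lay within the Sham range, and the log2 fold change of 2.56 (SE 0.69, adjusted p = 0.0269) was 3.04 without IANX 2 and 0.08 for IANX 2 alone.

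Each Frizzled call was lost without some of the samples. Fzd1 did not pass without Sham 3 (adjusted p = 0.0517), Fzd7 without Sham 2 (0.0522), Fzd2 without Sham 2 or Sham 3 (0.0726 and 0.0748), Fzd5 without IANX 3, Sham 2 or Sham 3 (0.0645, 0.0589 and 0.0538), and Fzd6 without IANX 1, IANX 3, Sham 1, Sham 2 or Sham 3 (0.0514, 0.075, 0.09, 0.1 and 0.0795). Fzd3, Fzd9 and Fzd4 did not pass (log2 fold changes 1.15, 1.10 and 0.25, SE 0.40, 1.0 and 0.26), although Fzd3 passed with DESeq2, without IANX 2 and with library sizes only (adjusted p = 0.0283, 0.0137 and 0.0177). Fzd9 was at 13.7 CPM in IANX 1 alone and at 1.58 and 0.593 CPM in IANX 2 and IANX 3, against 2.17 to 2.95 CPM in Sham. Fzd8 had 15 counts in IANX and 12 in Sham and was not tested.

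The co-receptor Lrp5 was at 49.3, 27.6 and 44.2 CPM in IANX samples, against 26.4, 18.1 and 24.5 CPM in Sham samples. IANX 2 was only just above Sham 1, and the log2 fold change of 0.81 (SE 0.26, adjusted p = 0.0455) passed with all samples and without IANX 2, but not without IANX 1, IANX 3, Sham 1, Sham 2 or Sham 3 (0.122, 0.117, 0.0757, 0.144 and 0.108). Lrp6, with a slightly higher level per length, was at 44.8, 40.8 and 51.9 CPM in IANX samples, against 42.9, 18.2 and 36.6 CPM in Sham samples. The groups overlapped for Lrp6 (log2 fold change 0.49, SE 0.30, adjusted p = 0.242).

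Lgr5, a receptor for R-spondins that is known as a stem cell marker in several epithelia, was the other member that was lower after IANX. Lgr5 (ENSRNOG00000004221, chromosome 7 of rn6 from 58448277 to 58587787) was at 1.70, 4.52 and 2.25 CPM in IANX samples, against 15.9, 11.1 and 17.9 CPM in Sham samples. All IANX samples were below all Sham samples, with IANX 2 the nearest to Sham (log2 fold change -2.40, SE 0.42, adjusted p = 0.00574). It passed without any 1 of the 6 samples, with log2 fold changes of -2.94 without IANX 2 and -1.71 for IANX 2 alone. Lgr4, the most abundant of the 3 receptors, was at 65.1, 62.3 and 88.8 CPM in IANX samples, against 78.6, 58.4 and 66.5 CPM in Sham samples, overlapping (log2 fold change 0.09, SE 0.19, adjusted p = 0.751). Lgr6 was at 1.85 to 6.91 CPM in IANX and 3.83 to 5.39 CPM in Sham, with a log2 fold change of -0.05 (SE 0.48).

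None of the 3 tested R-spondin genes passed. Rspo1 was at 17, 15.2 and 30.1 CPM in IANX samples, against 19.3, 15.7 and 15.2 CPM in Sham samples (log2 fold change 0.31, SE 0.29). Rspo2 and Rspo3 were below 5 CPM in every sample (log2 fold changes 1.95 and 0.41, adjusted p = 0.105 and 0.75). Rspo4, known for its part in nail formation in humans, was left out by the filter, with 973, 0 and 124 counts in IANX 1, 2 and 3 and 6, 2 and 0 counts in Sham 1, 2 and 3. It was thus high in IANX 1, lower in IANX 3 and not detected in IANX 2, at 55.1, 0 and 7.35 CPM in IANX. Without the filter Rspo4 passed in edgeR and with DESeq2 (adjusted p = 0.0307 and 0.0401), although IANX 2 had no count.

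Of 3 genes that both serve the β-catenin pathway and respond to it, Tcf7 and Lef1 were higher and Axin2 did not pass. Tcf7, a DNA-binding partner of β-catenin, was at 26.8, 8.55 and 19.6 CPM in IANX samples, against 5.59, 2.75 and 2.36 CPM in Sham samples (log2 fold change 2.35, SE 0.51, adjusted p = 0.0127). Lef1, a related factor, was at 12.3, 9.31 and 8.71 CPM in IANX samples, against 5.32, 4.08 and 6.57 CPM in Sham samples (log2 fold change 0.92, SE 0.28, adjusted p = 0.0409). Neither gene overlapped between the groups. Axin2, a scaffold of the β-catenin destruction complex and a widely used readout of the pathway, was at 23.5, 13.1 and 22.0 CPM in IANX samples, against 14.8, 20.4 and 16.5 CPM in Sham samples. IANX 2 was the lowest of all 6 samples for Axin2, and IANX 1 and IANX 3 were the highest (log2 fold change 0.18, SE 0.26, adjusted p = 0.619). Tcf7 was no longer called without Sham 2 or Sham 3 (adjusted p = 0.0608 and 0.0524), nor was Lef1 without IANX 1, IANX 3, Sham 1, Sham 2 or Sham 3 (0.129, 0.0692, 0.101, 0.114 and 0.0667).

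Promoter sequences of 34 of the 50 symbols were matched in the RefSeq table of build GRCr8, each from 250 bases before to 50 bases after the gene start. They were searched on both strands for the letters CTTTGAA or its variants with other last bases, which are CTTTGAT or else CTTTGTA or else CTTTGTT, all versions of the site that TCF and LEF factors are known to bind. The letters were in 7 of the 34 windows, 20.6%, against 17.1% of all 33469 windows of this length in the table, and a match is a description of the letters only. The following 4 sequences are those of the tested members whose window held a match, so that a match in each is given by the choice. They are Axin2 and Tcf7, readouts of the pathway, Fzd7, a receptor that was higher, and Sfrp5, the member that fell most. Dkk1, Wnt3 and Wnt8a, which were not tested, also held a match and are not shown. In GRCr8, Axin2 is at chr10:94398535-94398834 on the + strand, Tcf7 at chr10:36954230-36954529 on the - strand, Fzd7 at chr9:68425288-68425587 on the + strand and Sfrp5 at chr1:250960463-250960762 on the - strand, and each is printed 5′ to 3′ on the strand of its gene. Capitals mark the matched letters, which in Sfrp5 are on the opposite strand (TACAAAG, the reverse complement of CTTTGTA).
Axin2: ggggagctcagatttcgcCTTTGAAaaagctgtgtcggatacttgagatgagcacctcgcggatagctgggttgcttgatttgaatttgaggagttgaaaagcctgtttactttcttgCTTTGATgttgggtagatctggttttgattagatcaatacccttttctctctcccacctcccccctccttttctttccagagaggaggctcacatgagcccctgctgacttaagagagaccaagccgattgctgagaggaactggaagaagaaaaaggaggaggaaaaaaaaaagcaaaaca
Tcf7: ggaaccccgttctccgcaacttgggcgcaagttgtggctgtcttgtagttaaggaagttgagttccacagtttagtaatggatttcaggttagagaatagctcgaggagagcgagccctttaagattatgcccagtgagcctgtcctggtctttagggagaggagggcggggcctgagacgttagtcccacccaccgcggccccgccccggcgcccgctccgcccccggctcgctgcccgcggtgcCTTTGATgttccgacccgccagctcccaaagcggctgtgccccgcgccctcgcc
Fzd7: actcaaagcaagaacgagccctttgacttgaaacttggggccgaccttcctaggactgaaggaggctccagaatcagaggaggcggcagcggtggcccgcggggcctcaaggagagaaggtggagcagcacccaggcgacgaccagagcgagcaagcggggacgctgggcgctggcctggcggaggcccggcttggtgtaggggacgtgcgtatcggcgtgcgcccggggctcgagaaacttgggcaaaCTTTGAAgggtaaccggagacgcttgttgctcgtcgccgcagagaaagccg
Sfrp5: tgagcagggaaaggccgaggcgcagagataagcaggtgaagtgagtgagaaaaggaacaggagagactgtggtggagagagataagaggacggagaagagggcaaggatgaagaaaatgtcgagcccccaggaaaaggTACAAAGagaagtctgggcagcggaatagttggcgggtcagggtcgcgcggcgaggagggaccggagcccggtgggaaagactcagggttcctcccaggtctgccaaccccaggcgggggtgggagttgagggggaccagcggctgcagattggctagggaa

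In these windows the first matched base lay 232 and 132 bases before the start of Axin2, 4 bases before that of Tcf7, 1 base before that of Fzd7 and 112 bases before that of Sfrp5. Axin2 thus held 2 matches and did not pass the test between the groups, while Tcf7 and Fzd7 with 1 match each were higher and Sfrp5 with 1 match was lower. Of the 13 called members with a promoter in the table, 3 held a match. The window of Lef1 held none of these letters.

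IANX 2 was the lowest IANX sample for 14 of the 20 members called higher, 70.0%, against 57.9% of all 2734 genes called higher. Set against the Sham samples alone, IANX 2 had 11 members higher and 2 lower, where 12.6% and 12.8% of all tested genes were called in this comparison. IANX 1 and IANX 3 against the same Sham samples had 20 higher and 2 lower, where 22.7% and 22.1% of all tested genes were called. With 1 IANX sample, the spread comes from the Sham samples alone, and the comparisons share these samples. Dkk3 had log2 fold changes of 2.15 in IANX 2 and 2.20 in IANX 1 and IANX 3, and Sfrp1 of 1.20 and 1.10. For Fzd2 they were 1.37 and 0.63, and for Frzb 1.60 and 0.85, higher in IANX 2. For Wnt11 they were 1.89 and 2.82, for Wnt5a 1.88 and 3.71, and for Wif1 1.42 and 2.84. Wnt4 at 1.14 and 6.57, Wnt10a at 0.98 and 4.19, Wnt7b at 0.13 and 3.96, Fzd6 at 0.08 and 3.04 and Sfrp2 at -0.23 and 3.28 were the called members farthest apart. These members were picked for the distance of IANX 2 from IANX 1 and IANX 3, so that its place at the end is given by the choice. Their order in IANX, with IANX 2 lowest and IANX 3 highest, was also that of the ameloblast and epithelium marker sums. That order was not particular to them. It was also that of the called members Wnt11, Fzd1 and Fzd5, and of members that did not pass, such as Lgr4, Rspo1, Lrp6 and Wnt6. The part of those cells in these values was not tested.

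**Figure D4:**
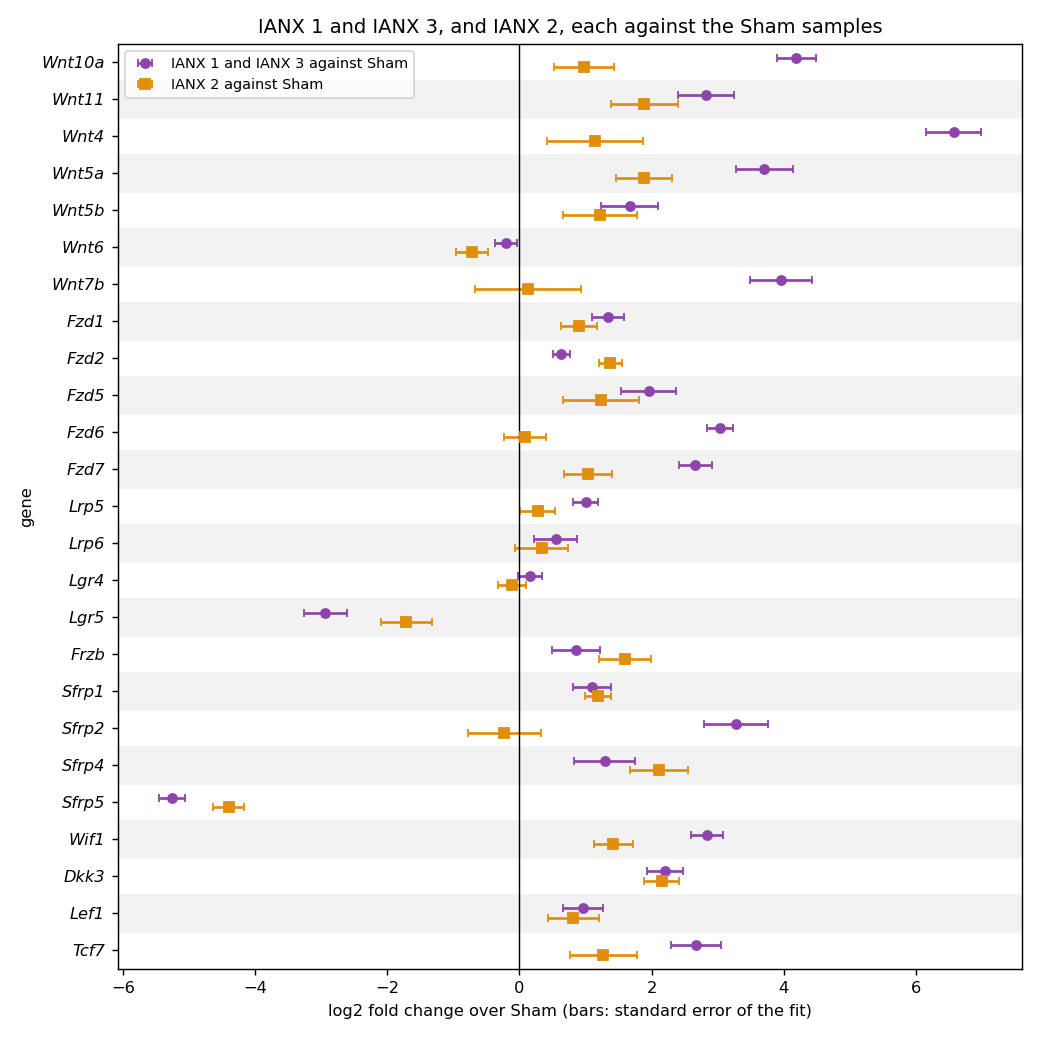
Log2 fold change over the 3 Sham samples (x axis, bars are the standard error of the fit) for IANX 1 and IANX 3 together (circles) and IANX 2 alone (squares). Dkk3 and Sfrp1 have close values in both, while Wnt4, Fzd6, Wnt7b and Sfrp2 lie far to the right in IANX 1 and IANX 3 and near 0 or at most 1.14 in IANX 2.

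**Figure D5:**
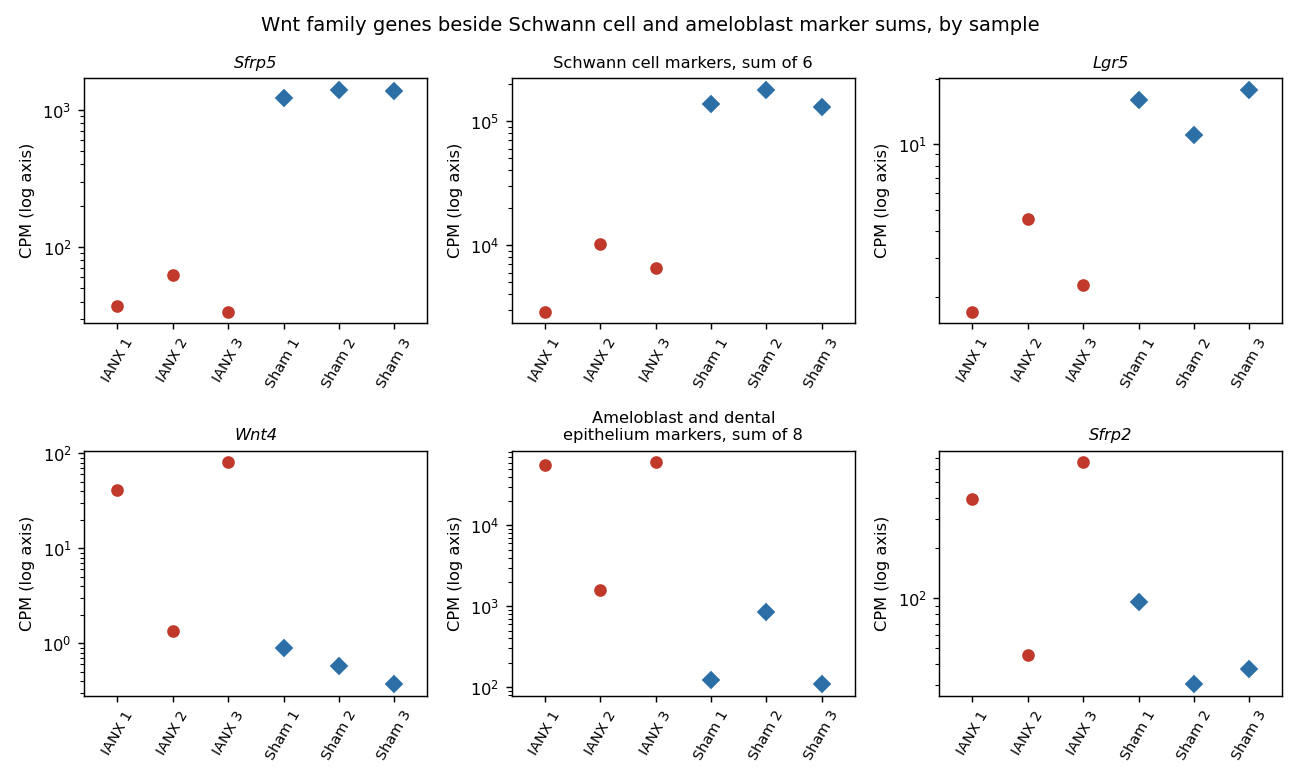
CPM (y axes, log scale) of Sfrp5, Lgr5, Wnt4 and Sfrp2 and summed CPM of 6 Schwann cell markers and of 8 ameloblast and dental epithelium markers, by sample (x axes, circles for IANX, diamonds for Sham). Sfrp5 and Lgr5 are lower in every IANX sample, as is the Schwann cell sum, and IANX 2 is the IANX sample with the lowest Wnt4, Sfrp2 and ameloblast sum.

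Among other genes of the pathway, 53 of 56 listed symbols were matched and 51 tested, of which 21 (41.2%) were higher and 9 (17.6%) lower in IANX, with a median log2 fold change of 0.52. Over all tested genes the shares were 17.8% and 16.6%, so that the share of lower genes was near that of all genes. Of 3 genes of Wnt secretion and release, 2 were higher, and Porcn, the enzyme that attaches the lipid to Wnts, did not pass (log2 fold change -0.53, adjusted p = 0.0621). Of 6 tested co-receptors and genes of receptor turnover, 4 were higher, and Kremen1 and Rnf43 did not pass. Wls, the carrier that brings Wnts to the cell surface, was at 158, 98.7 and 205 CPM in IANX samples, against 38.0, 30.4 and 32.6 CPM in Sham samples (log2 fold change 2.19, SE 0.28, adjusted p = 0.00185). Ror2, the receptor of Wnt5a, was at 29.0, 14.1 and 32.1 CPM in IANX samples, against 3.38, 2.25 and 3.62 CPM in Sham samples (log2 fold change 3.02, SE 0.38, adjusted p = 0.00182). Every IANX sample was above every Sham sample for both. Ptk7, a co-receptor, and Notum, an enzyme that removes the lipid from Wnts, were higher by 3.07 and 2.70 on the log2 scale (adjusted p = 0.00417 and 0.0385). Notum was at 10.2, 1.47 and 18.5 CPM in IANX samples, against 1.38, 2.0 and 1.26 CPM in Sham samples, so that IANX 2 lay within the Sham range and the call rested on IANX 1 and IANX 3. Of 8 tested genes of the planar cell polarity pathway, 4 were higher, 1 was lower and 3 did not pass. The lower one was Celsr2, the most abundant of them in Sham (log2 fold change -1.07, adjusted p = 0.014). Its mean was 116.0 CPM in IANX and 242.7 CPM in Sham, with every IANX sample below every Sham sample. Vangl2 and Celsr1 were higher by 4.82 and 3.76 on the log2 scale (adjusted p = 0.0119 and 0.0179). Celsr1 was at 106.0, 10.9 and 200.7 CPM in IANX samples, against 8.91, 5.83 and 8.57 CPM in Sham samples. IANX 2 was thus only just above Sham 1 for Celsr1. Vangl2 was at 50.7, 3.38 and 75.9 CPM in IANX samples, against 1.59, 1.67 and 1.33 CPM in Sham samples, with the same order of the IANX samples as Wnt4.

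Of 6 reported target genes of the pathway, 4 were higher: Tnfrsf19, Cd44, Ccnd1 and Myc. Sp5 and Wisp1 did not pass (log2 fold changes 1.32 and 0.66, adjusted p = 0.109 and 0.183). Tnfrsf19, a receptor of the TNF family, was at 75.6, 56.3 and 115 CPM in IANX samples, against 9.32, 8.99 and 12.7 CPM in Sham samples (log2 fold change 2.99, SE 0.30, adjusted p = 0.000888). Cd44, a hyaluronan receptor, and Ccnd1, the G1 cyclin D1, had log2 fold changes of 2.78 and 1.83. These target genes also answer to other signals. Of 13 cytoplasmic genes, 5 were lower and 1, Ctnnb1, the gene of β-catenin, was higher (log2 fold change 1.06, adjusted p = 0.0199). The lower ones, named after their values were seen, were Apc2, Dvl1, Ctnnbip1, Nkd1 and Gsk3a, with log2 fold changes of -1.73 to -0.49. Of 10 nuclear genes, the corepressor genes Tle3 and Tle4 and the β-catenin cofactor gene Pygo1 were higher and Tle1 was lower. Of 5 other secreted or membrane inhibitors, Tmem64, Draxin and Sost were higher and Apcdd1 and Sostdc1 lower (log2 fold changes -0.97 and -0.66). Tmem64 had a log2 fold change of 2.04, and Draxin, below a mean of 1 CPM, of 3.79 (adjusted p = 0.00243). Sost, an inhibitor made by osteocytes, had 58 counts in IANX and 0 in Sham, or at least 14.6-fold higher with the Sham group set to 3 counts in all. Without Sham 2 or Sham 3, 10 and 11 of the 51 genes were higher, where 1200 and 1133 of all 15374 tested genes were. Without Sham 2, 5 of the 51 were lower, where 1664 of all tested genes were (2550 with all samples).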

How the data were processed

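RNA-seq counts of 6 IAN samples were analysed. The authors made raw counts per gene from poly-A paired-end libraries with HISAT2 2.0.5 (rn6), StringTie 1.3.3b and featureCounts 1.5.0-p3. The authors also deposited FPKM, used here only to check that their gene length column was the divisor, and columns of their own DESeq2 comparison, which were not used. The annotation release and strand setting are not given in the sources used here.

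Genes kept by filterByExpr of edgeR 4.0.16 were TMM-normalized and tested with the two-sided quasi-likelihood test (glmQLFit, glmQLFTest; R 4.3.3), fitting the surgery alone, and p-values were adjusted by Benjamini-Hochberg over all 15374 tested genes. Standard errors are the log2 fold change over the square root of F. CPM per kilobase use the deposited length. Ratios with 0 to 3 counts in a group have exact binomial 95% intervals, and intervals and floors cover counting error only. Named members passed with a mean of at least 1 CPM or had the highest level per length of their role, and of the other pathway genes the 10 largest called changes with a mean of at least 1 CPM were named first, others after their values were seen. Members, lists and alternatives were chosen with earlier results of these data known. The alternatives were DESeq2 1.42.0, RLE size factors, library sizes only, no filter, each sample left out, IANX 2 alone and a replicate block. The code was tested on simulated data. Figures used matplotlib 3.10.9.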

Additional observations from a re-analysis of the deposited data

How the results depend on the processing

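In place of 20 higher members, 12, 11, 5 and 5 were higher without IANX 3, Sham 1, Sham 2 and Sham 3 (5 to 20 over the samples left out), 11 for IANX 2 alone and 13 with the replicate block. With the block, 2175 of all tested genes were higher, in place of 2734, and no call of a lower member changed. The samples share only a number: the deviations of same-numbered samples from their group means correlated with r of 0.0858, -0.0144 and 0.0753. Of the other pathway genes, 10 to 28 were higher and 5 to 8 lower over the samples left out, in place of 21 and 9; 10 were higher for IANX 2 alone, and 3 were lower with library sizes only, a scaling that moved the median over all genes to 0.53 (log2), in place of 0.08. Among the 25 named and tested members, directions turned for Wnt6 with library sizes only (0.12), for Lgr4 when samples were left out (-0.094 to 0.21) and in IANX 2 alone (-0.11), and for Sfrp2 in IANX 2 alone (-0.23); the cause was not tested. Of members that did not pass, Axin2 (-0.38), Dkk2 (-1.16), Fzd9 (-0.63), Rspo1 (-0.13) and Fzd4 (-0.10) also turned in IANX 2 alone, Rspo3 with the block (-0.20), and Lgr6 and Dkk4 with library sizes only (0.41 each) and without IANX 2 (0.30 and 0.04); their other leave-one-out fits were not examined for turns. Of these 25 members, 25 kept their call with DESeq2, 24 with RLE, 22 without a filter and 18 with the block. Members with few counts in most samples were left out of the test by the filter, and depth limits what can be said of them.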
